A study of Homo sapiens with 4 samples.

Results

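The cytotoxic granule and SLAM receptor genes followed here are 9 genes, picked by symbol: GZMA, GZMB, PRF1, NKG7, TIA1 and SRGN for the granule, and SLAMF1, SLAMF6 and SLAMF7 for the receptors. They are 9 of the 22798 genes listed on their own strand, and all 9 had an entry. Their nascent RNA was measured by Bru-seq in Karpas 299, an established line from a CD30-positive, ALK-positive anaplastic large cell lymphoma of T cell origin. In Bru-seq, living cells build bromouridine into new transcripts, which are then pulled down and sequenced, so the reads stand for synthesis and not for the stored RNA. There were 4 libraries, 1 per condition, from 2 experiments: SM-164 with DMSO, and CD30L+ CHO with CHO. SM-164 is a bivalent Smac mimetic, a synthetic antagonist of the inhibitor of apoptosis (IAP) proteins, and DMSO is its solvent control. For the other pair, the lymphoma cells lay on Chinese hamster ovary (CHO) cells carrying the ligand of CD30, or on CHO cells as the negative control, and were taken off the layer by gentle pipetting. Each exposure lasted 3 h with the label present in the final 30 min, and no dose of SM-164 is stated in the labels. The series sets synthetic beside physiological IAP antagonism in one line.

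Cytotoxic lymphocytes keep perforin and granzymes in secretory granules, packed on the proteoglycan serglycin. On contact with a target cell, perforin opens its membrane and the granzymes, which are serine proteases, enter and start cell death. Anaplastic large cell lymphomas often carry these granule proteins although many have lost parts of the T cell receptor complex. SLAM family receptors are surface proteins of blood cells that mostly bind their own kind on a neighbouring cell and signal through the small adaptors SAP and EAT-2.

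The library totals were 26217590 reads with SM-164, 31030478 with DMSO, 45535366 on CD30L+ CHO cells and 45885631 reads on CHO cells. Levels are RPKM, reads scaled by counted bases and by library total, over exons and introns together, so that long and short genes can be set side by side. Each level above 0 reads has an exact Poisson 95% interval, a level of 0 reads has the limit that 3 reads would give, and each read ratio has an exact conditional 95% interval; all cover counting error only. With 1 library per condition there is no replicate check and no p-value. The defining markers gave a mixed picture of the labelled cell. TNFRSF8, which encodes CD30, was at 12.3 RPKM with SM-164, 9.59 with DMSO, 5.10 on CD30L+ CHO cells and 4.97 RPKM on CHO cells. Of the other lymphoma markers, IL2RA was at 24.3 RPKM, NPM1 at 7.76 and ALK at 0.0980 RPKM with DMSO. The ALK level is an average of 2216.8 reads over 728838 counted bases. It does not show how the reads were spread along the gene, so the level of a part could be higher. Of 12 T cell markers, CD7 was at 0 reads in every library, and CD3E, CD2 and LCK had at most 5. CD247, the T cell receptor zeta chain gene, was between 0.938 and 1.29 RPKM. CD4 was at 1.21 RPKM with SM-164, 1.42 with DMSO, 0.464 on CD30L+ CHO cells and 0.863 RPKM on CHO cells. CD3D was at 1.35, 1.25, 0.323 and 0.487 RPKM in that order of libraries. By the 2-fold rule given below, CD3D was called lower for CHO cells against DMSO, as were 4.52% of all tested genes. CD3D met the minimums of that rule only through its DMSO level. The summed level of the 12 was 4.14 RPKM with SM-164, 4.09 with DMSO, 1.93 on CD30L+ CHO cells and 2.65 RPKM on CHO cells. Of 13 NK cell markers, which cytotoxic cells partly share, 2 or 3 reached 0.5 RPKM in a library and NCR2, NCR3 and KIR2DL3 were at 0 reads in all 4. Their summed level was 3.55 RPKM with SM-164, 3.85 with DMSO, 2.06 on CD30L+ CHO cells and 2.48 RPKM on CHO cells. KLRC1, whose reads are uncertain because of its near-identical paralogs, was the highest of them in each library, and without it, a sum added after its values were seen, the level was 1.16 RPKM with SM-164, 1.08 with DMSO, 1.19 on CD30L+ CHO cells and 1.46 RPKM on CHO cells. The T cell sum and KLRC1 were lower in the co-culture libraries, as were the granzymes and perforin below, whereas the NK sum without KLRC1 was not. The 3 T cell markers tested for CHO cells against DMSO all had log2 ratios below 0. Of those too low for the minimums given below, CD8A was at 0.104 RPKM on CHO cells and 0.0244 with DMSO. CD3G was at 0.150 and 0.0819 RPKM and CD8B at 0.0397 and 0.0270 RPKM in that order. TRAT1, at 0.0387 and 0.0954 RPKM, and CD5, at 0.00772 and 0.0431 RPKM, went the other way. For CHO cells against DMSO, KLRD1 and KLRK1 had ratios of 1.26 (1.06 to 1.51) and 1.66 (1.41 to 1.98). NCR1 was at 0.226 RPKM on CHO cells and 0.195 with DMSO, and KLRB1 at 0.00548 and 0.0276 RPKM. Of the 13 NK cell markers, 2 met the minimums given below in that comparison. KLRC1 was called lower by 2-fold, where 4.52% of all tested genes were. The part of these markers in the results was not tested. In bulk libraries, fewer cells making a transcript and less RNA per cell cannot be told apart.

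Promoter sequence is shown for GZMA, GZMB, PRF1 and NKG7, the granule genes that were lower in both co-culture libraries than with DMSO. The 250 bases before each start site come from RefSeq on GRCh38.p14, whose promoter table matched 7 of the 9 genes; SRGN and SLAMF7 are named only. The windows are chr5:55102396-55102645 (plus strand) for GZMA, chr14:24634191-24634440 (minus strand) for GZMB, chr10:70602742-70602991 (minus strand) for PRF1 and chr19:51372655-51372904 (minus strand) for NKG7. Each runs 5′ to 3′ on the gene's own strand, and capitals mark matches, on either strand, to the RUNX motif TGTGGT or the AP-1 motif TGANTCA.
GZMA: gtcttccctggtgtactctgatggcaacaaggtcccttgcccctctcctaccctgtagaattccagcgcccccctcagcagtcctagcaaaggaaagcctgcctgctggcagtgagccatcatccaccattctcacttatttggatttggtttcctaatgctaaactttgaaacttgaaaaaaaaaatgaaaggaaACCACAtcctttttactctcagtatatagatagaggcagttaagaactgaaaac
GZMB: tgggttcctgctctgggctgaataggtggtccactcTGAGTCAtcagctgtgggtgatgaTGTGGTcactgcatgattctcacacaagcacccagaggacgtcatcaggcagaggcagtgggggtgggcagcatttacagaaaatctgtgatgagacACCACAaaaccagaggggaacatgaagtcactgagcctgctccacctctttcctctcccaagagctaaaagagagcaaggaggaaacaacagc
PRF1: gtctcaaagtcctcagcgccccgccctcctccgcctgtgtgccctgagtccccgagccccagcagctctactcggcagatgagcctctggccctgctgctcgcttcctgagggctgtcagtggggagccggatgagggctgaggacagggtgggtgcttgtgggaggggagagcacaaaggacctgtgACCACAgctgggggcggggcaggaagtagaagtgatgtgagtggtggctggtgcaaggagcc
NKG7: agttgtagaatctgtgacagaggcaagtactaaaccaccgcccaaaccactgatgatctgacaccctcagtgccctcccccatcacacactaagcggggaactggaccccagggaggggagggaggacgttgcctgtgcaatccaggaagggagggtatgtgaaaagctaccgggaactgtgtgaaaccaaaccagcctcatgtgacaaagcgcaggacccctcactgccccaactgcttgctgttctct
RUNX factors control genes of cytotoxic T cells, and AP-1 factors act downstream of T cell activation. The RUNX motif had 1 match in the GZMA window, 2 in the GZMB window and 1 in the PRF1 window, and 11% of all 35116 promoter windows of that length held it. The AP-1 motif had 1 match, in the GZMB window, and 6.57% of all windows held it. Neither motif matched in the windows of NKG7, TIA1, SLAMF1 or SLAMF6. The NF-kB motif, GGG and CC with any 5 bases between them, matched in none of the 7 genes' windows, and 54.4% of all windows held it. The RUNX and AP-1 motifs were chosen after these sequences were seen. The matches do not overlap each other, and each is a description of letters in the window.

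The granule genes were far more transcribed than the SLAM receptors in the DMSO library. GZMA, which encodes the tryptase granzyme, led with 11.01 RPKM (10.6 to 11.4), rank 299 among 21187 genes of at least 300 counted bases. PRF1, the perforin gene, was at 7.33 RPKM (6.92 to 7.75) and GZMB, the gene of the granzyme that cuts after aspartate, at 5.81 RPKM (5.34 to 6.29). SRGN, the serglycin gene, was at 4.00 RPKM (3.82 to 4.17). NKG7, the gene of a granule membrane protein that promotes degranulation, was at 3.02 RPKM (2.47 to 3.67), and TIA1, the gene of an RNA-binding protein used as a cytotoxic granule marker, at 2.62 RPKM (2.53 to 2.71). NKG7 and TIA1 had overlapping intervals, and no other neighbours in this order did. Among the receptors SLAMF7 was at 0.170 RPKM (0.135 to 0.211), SLAMF1 at 0.0607 (0.0473 to 0.0766) and SLAMF6 at 0.0118 (0.00645 to 0.0198), the last from 14 reads.

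The order of levels differed between the experiments. With SM-164 it was the same as with DMSO, from GZMA at 8.34 RPKM to SLAMF6 at 0.00898 RPKM, with overlapping intervals for GZMB and SRGN and for NKG7 and TIA1. On CD30L+ CHO cells SRGN came first at 5.94 RPKM and SLAMF7 second at 4.02 RPKM. GZMA at 3.16 RPKM, TIA1 at 2.62, GZMB at 1.93, PRF1 at 1.89 and NKG7 at 0.796 followed there, and the intervals of GZMB and PRF1 overlapped. SLAMF7 thus stood above every granule gene but SRGN in that library, at rank 882 among all genes, against rank 10419 in the DMSO library. On CHO cells GZMA was first at 3.97 RPKM, ahead of SRGN at 3.45, PRF1 at 2.87, TIA1 at 2.82, GZMB at 2.66, NKG7 at 1.97 and SLAMF7 at 1.14. The intervals of PRF1, TIA1 and GZMB overlapped from neighbour to neighbour there. SLAMF1 and SLAMF6 were the lowest of the 9 in all 4 libraries.

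**Figure D1:**
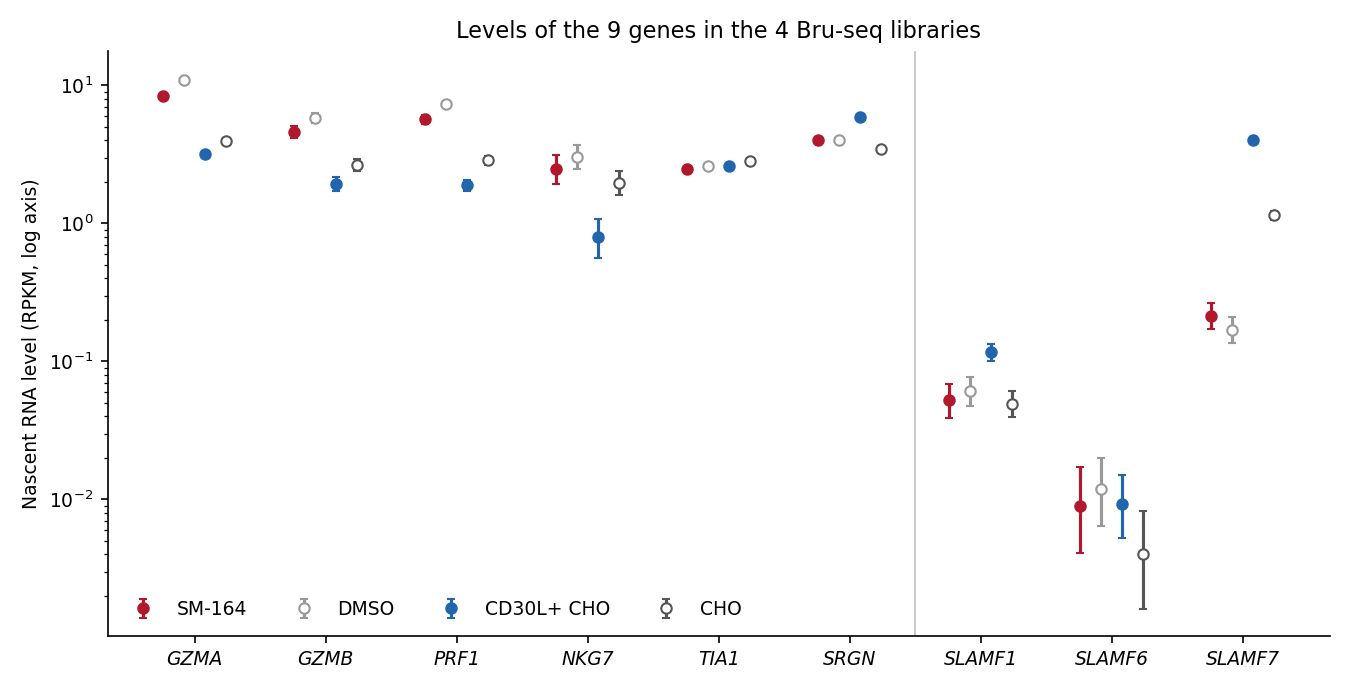
Nascent RNA level of each of the 9 genes (RPKM, log axis), 1 point per library, with bars for the exact Poisson 95% interval of its reads. SLAMF7 spans 0.170 RPKM with DMSO to 4.02 RPKM on CD30L+ CHO cells, while TIA1 stays between 2.47 and 2.82 RPKM.

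With SM-164, nascent RNA of the protease and pore genes was lower than with DMSO by similar factors, and none of the 9 genes reached 2-fold. GZMA was at 0.757 of its DMSO level (0.711 to 0.805), PRF1 at 0.775 (0.708 to 0.848) and GZMB at 0.788 (0.691 to 0.897). SRGN was at 1.00 (0.938 to 1.07) and TIA1 at 0.944 (0.896 to 0.995). None of the 3 receptors could be told from its DMSO level at this depth.

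GZMA had 8.34 RPKM from 1663.5 reads with SM-164 and 11.01 RPKM from 2600 reads with DMSO. PRF1 had 5.67 RPKM with SM-164 and 7.33 RPKM with DMSO, and GZMB 4.56 and 5.81 RPKM. The counting intervals of these 3 genes did not overlap between the libraries. NKG7 had 2.49 RPKM from 71 reads with SM-164 and 3.02 RPKM from 102 reads with DMSO, a ratio of 0.824 whose interval, 0.600 to 1.13, spans 1. SLAMF7 had 0.213 RPKM with SM-164 and 0.170 RPKM with DMSO, a ratio of 1.26 (0.918 to 1.72). SLAMF1, the gene of a receptor that measles virus also uses, had 51 reads with SM-164 and 70 with DMSO, a ratio of 0.862 (0.589 to 1.25). SLAMF6, the gene of a receptor of T, B and NK cells, had 9 reads with SM-164 and 14 with DMSO, a ratio of 0.761 (0.291 to 1.89). All 4 of these intervals span 1.

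A gene was called different where log2((RPKM + 0.25)/(RPKM + 0.25)) reached 2-fold, among genes with at least 300 counted bases and a mean of at least 0.5 RPKM over the libraries compared; this scale understates differences of low genes. The 6 granule genes met these minimums with SM-164, and 0 of the 6 were called in either direction, where 0.19% of all 7881 tested genes were called higher and 0.0634% lower. At 1.5-fold the count was again 0 of 6, where 0.787% of all tested genes were higher and 1.1% lower. Their log2 ratios lay between -0.39 for GZMA and 0.00 for SRGN, with a median of -0.29, against -0.04 over all tested genes. GZMA was the 414th lowest of the 7881, PRF1 the 535th, GZMB the 637th and NKG7 the 963rd. Genes with few counted bases were lower in general: of 10 equal bins of tested genes by counted bases, the one with the fewest holds GZMB and NKG7 and had a median of -0.27. With the median of its own bin subtracted, GZMA was at -0.29, PRF1 at -0.17, GZMB at -0.06 and NKG7 at 0.01. That subtraction of length medians also turned the split of all calls, 15 higher and 5 lower, into 20 higher and 0 lower.

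**Figure D2:**
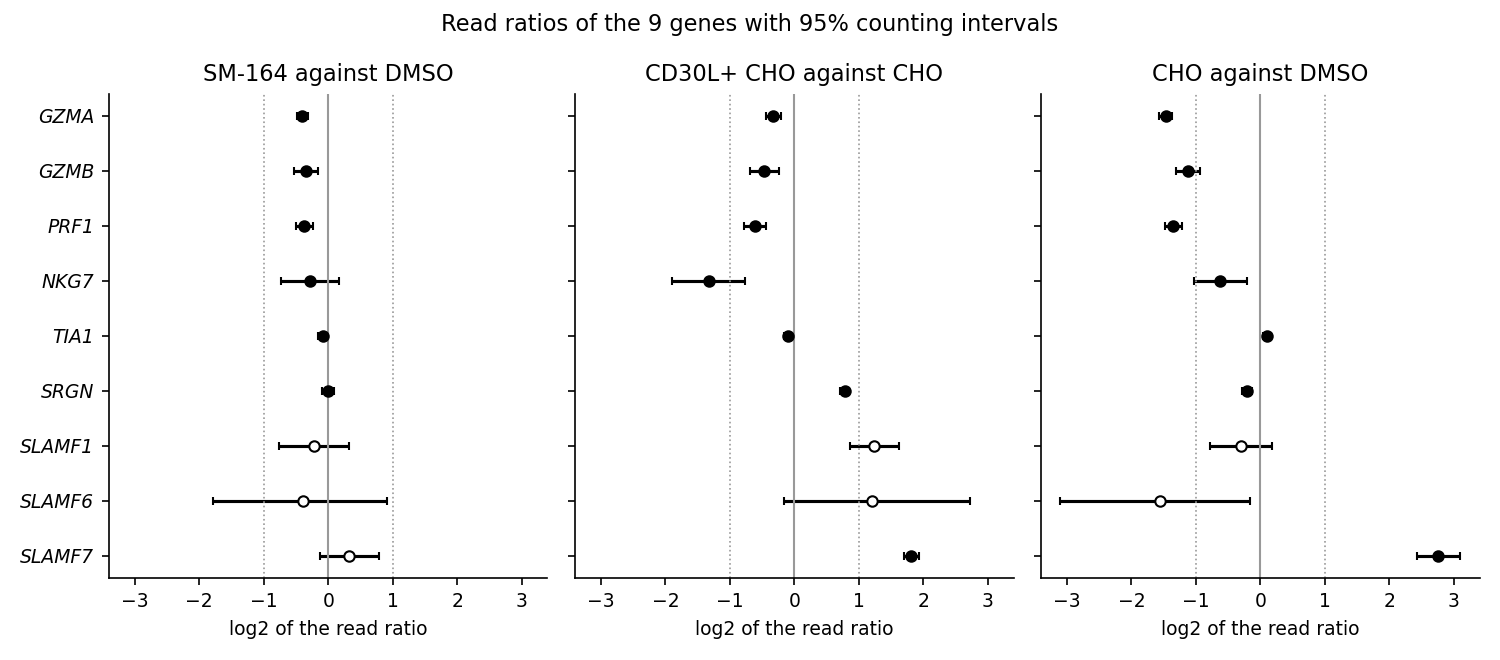
Log2 of the read ratio of each of the 9 genes in the 3 comparisons, with the exact conditional 95% counting interval; filled points met the expression minimums, open points did not, and dotted lines mark 2-fold. With SM-164 every point lies within 2-fold, and SLAMF7 lies far to the right in the other panels, at ratios of 3.51 and 6.72.

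With CD30L+ CHO cells against CHO cells, SLAMF7 was called higher and NKG7 lower by the 2-fold rule, and the other members were not called. SLAMF7, also called CRACC, is the receptor that the antibody elotuzumab targets on myeloma cells, and its ratio was 3.51 (3.25 to 3.80). SRGN was at 1.72 times its CHO level (1.64 to 1.804). NKG7 was at 0.401 (0.269 to 0.587), PRF1 at 0.658 (0.584 to 0.741), GZMB at 0.726 (0.621 to 0.846) and GZMA at 0.796 (0.735 to 0.862).

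SLAMF7 had 4.02 RPKM from 2841.7 reads on CD30L+ CHO cells and 1.14 RPKM from 815.4 reads on CHO cells. SRGN had 5.94 RPKM on CD30L+ CHO cells and 3.45 RPKM on CHO cells. NKG7 had 0.796 RPKM from 39.4 reads on CD30L+ CHO cells and 1.97 RPKM from 98.2 reads on CHO cells. The levels of these 3 genes lie well outside each other's counting intervals, although NKG7 rests on few reads over 1087 counted bases, the fewest of the 9. PRF1 had 1.89 RPKM on CD30L+ CHO cells and 2.87 RPKM on CHO cells. GZMB had 1.93 RPKM on CD30L+ CHO cells and 2.66 RPKM on CHO cells. GZMA had 3.16 RPKM on CD30L+ CHO cells and 3.97 RPKM on CHO cells. The counting intervals of these 3 genes did not overlap between the libraries, and none of the 3 passed 2-fold.

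Of the 9 genes, 7 met the minimums. SLAMF7 was the 1 called higher, where 0.979% of 7661 tested genes were, and NKG7 the 1 called lower, where 0.731% were. SLAMF7 had the 19th highest log2 ratio, 1.61. For scale, BIRC3, the gene of the IAP protein c-IAP2, had a read ratio of 10.2 (9.93 to 10.5) here and 6.48 (6.27 to 6.70) with SM-164. SRGN, at a log2 ratio of 0.74, ranked 137th and was the only other member past 1.5-fold upward, a mark that 2.62% of tested genes passed. NKG7 was the only member past 1.5-fold downward, where 4.99% of tested genes were. The split of all calls was 75 higher and 56 lower, against 113 and 31 with TMM scaling, 92 and 40 after centring the median on 0, and 94 and 25 with the length medians subtracted.

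NKG7 was the 45th lowest gene at a log2 ratio of -1.08, and lost its call under each of those 3 scalings, at -0.91 with TMM scaling, -0.97 with the median set to 0 and -0.82 with the length medians subtracted. PRF1, GZMB and GZMA had log2 ratios of -0.55, -0.42 and -0.31, and with the length medians subtracted of -0.34, -0.15 and -0.10. The median over the 6 granule genes was -0.36, that of all tested genes -0.12, and 72% of all tested genes lay below 0. TMM scaling moved the median of all genes by 0.17. TIA1 had 2.62 RPKM on CD30L+ CHO cells and 2.82 RPKM on CHO cells, a log2 ratio of -0.09 that turned positive with TMM scaling or the median set to 0.

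SLAMF1 and SLAMF6 were too low for the minimums. SLAMF1 had 197 reads on CD30L+ CHO cells and 84 reads on CHO cells, a ratio of 2.36 (1.82 to 3.09) at levels of 0.116 and 0.0492 RPKM. SLAMF6 had 16 reads on CD30L+ CHO cells and 7 reads on CHO cells, for a ratio of 2.30 whose interval, 0.897 to 6.62, spans 1. The read ratios of SLAMF7 and SLAMF1 thus had intervals above 1, and SLAMF6 could not be told from its CHO level. On the log2 scale with the pseudocount, SLAMF1 was at 0.29 and SLAMF6 at 0.03. The share of all genes past a read ratio of 2 without the minimums was not taken.

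**Figure D3:**
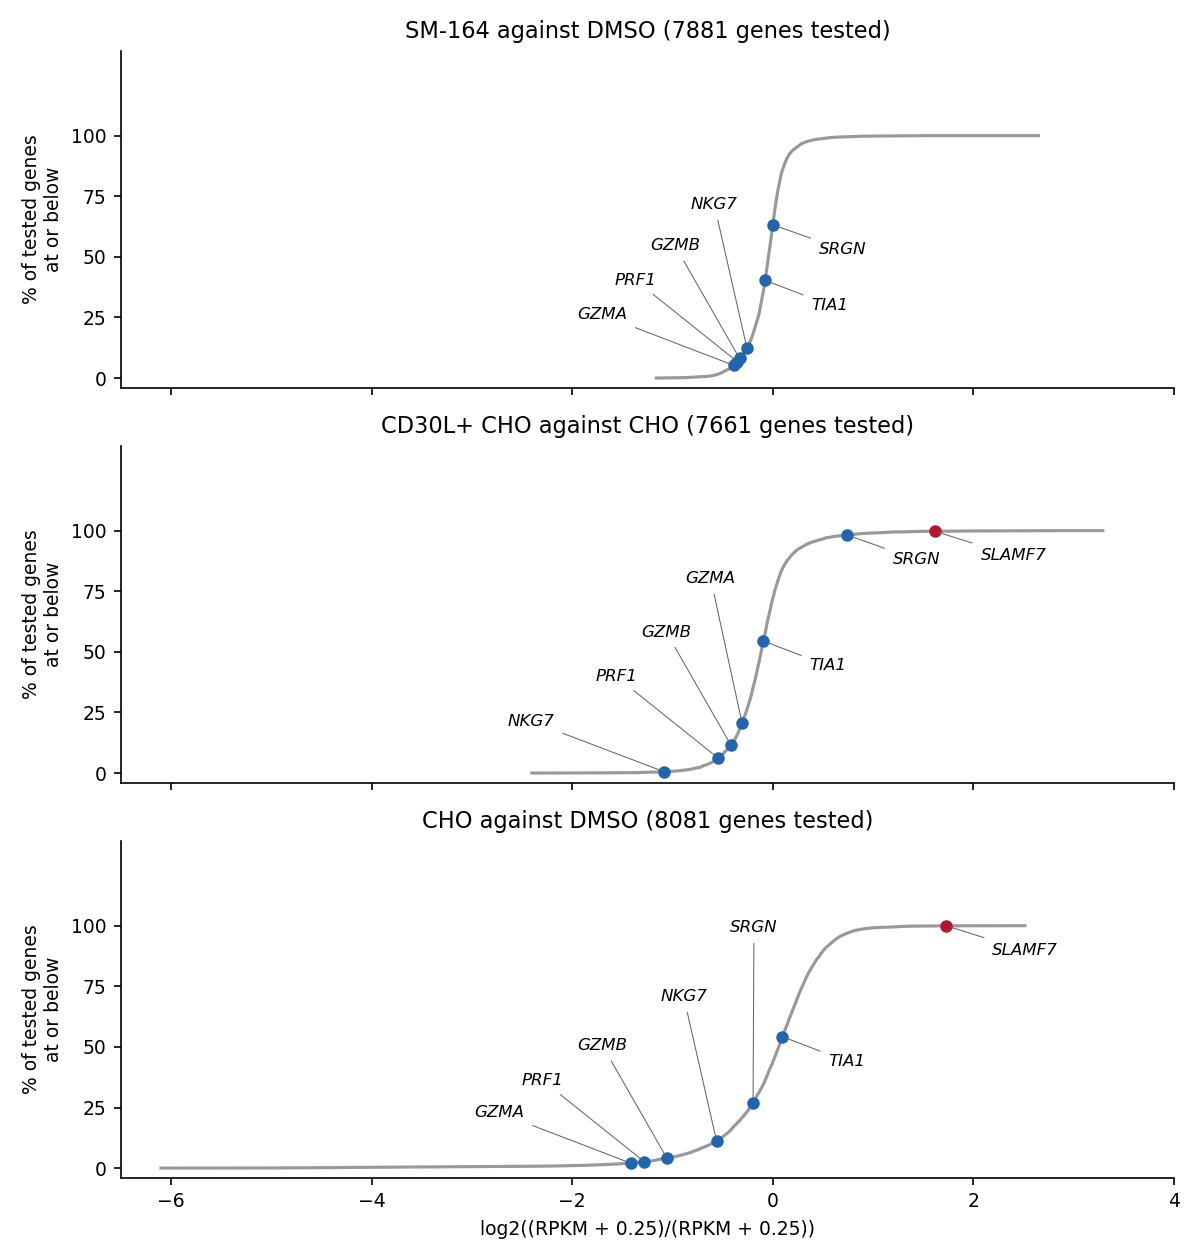
Cumulative share of all tested genes, in percent, against the log2 ratio of RPKM with a pseudocount of 0.25, 1 panel per comparison; points mark the tested granule genes (blue) and SLAMF7 (red). SLAMF7 ranks 19th highest of 7661 in the CD30L panel, and GZMA 165th lowest of 8081 in the panel of CHO against DMSO.

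CHO cells against DMSO sets the control libraries of the experiments side by side, and contact with CHO cells, the pipetting and the experiment itself cannot be told apart in it. It shares the CHO library with the CD30L comparison and the DMSO library with the SM-164 comparison, so its values are not independent of theirs. SLAMF7 had 1.14 RPKM from 815.4 reads on CHO cells and 0.170 RPKM from 82 reads with DMSO, a ratio of 6.72 (5.35 to 8.54). GZMA had 3.97 RPKM on CHO cells and 11.01 RPKM with DMSO, a ratio of 0.360 (0.338 to 0.385). For SLAMF7, GZMA, GZMB and PRF1 the controls lay further apart by read ratio than either treatment did from its own control.

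PRF1 was at 0.392 of its DMSO level on CHO cells (0.357 to 0.430) and GZMB at 0.459 (0.403 to 0.522). NKG7 was at 0.650 (0.487 to 0.866), and its log2 ratio of -0.56 became -0.02 with the length medians subtracted. SRGN was at 0.865 (0.816 to 0.916). TIA1 was at 1.08 (1.03 to 1.12), which turned below 1 with TMM scaling or the length medians subtracted. SLAMF1 was at 0.812 (0.584 to 1.13), and SLAMF6, with 7 reads on CHO cells and 14 with DMSO, at 0.338 (0.115 to 0.895). The CHO level lay between the CD30L+ CHO level and the DMSO level for SLAMF7, GZMA, GZMB, PRF1 and NKG7.

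Of the 7 genes tested here, GZMA, PRF1 and GZMB were called lower, where 4.52% of 8081 tested genes were, and SLAMF7 was called higher, where 0.879% were. At 1.5-fold the counts were also 3 and 1, where 10.7% of tested genes were lower and 7.07% higher. SLAMF7 met the minimums only through its CHO level, and it was not called with a pseudocount of 1, at a log2 ratio of 0.87, and not tested with a minimum mean of 1 RPKM. Its log2 ratio of 1.73 was the 5th highest, and those of GZMA, PRF1 and GZMB, at -1.42, -1.28 and -1.06, were the 165th, 211th and 325th lowest. With the length medians subtracted GZMB was at -0.52 and not called, and the split of all calls was 117 higher and 234 lower in place of 71 and 365.

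The proportions of GZMA, GZMB and PRF1 differed less between libraries than their levels did, but not all were the same within counting error. The RPKM of GZMA was 1.82 times that of GZMB with SM-164 (1.63 to 2.04), 1.90 times with DMSO (1.74 to 2.08), 1.64 times on CD30L+ CHO cells (1.44 to 1.87) and 1.49 times on CHO cells (1.33 to 1.67). The interval on CHO cells lies below that with DMSO. GZMB was 0.805 times PRF1 with SM-164 (0.712 to 0.909), 0.792 times with DMSO (0.717 to 0.874), 1.02 times on CD30L+ CHO cells (0.880 to 1.19) and 0.928 times on CHO cells (0.819 to 1.05). The interval on CD30L+ CHO cells lies just above that with DMSO. GZMA was between 1.38 and 1.67 times PRF1 in the 4 libraries. The summed level of GZMA, GZMB, PRF1 and NKG7 was 21.1 RPKM with SM-164, 27.2 with DMSO, 7.78 on CD30L+ CHO cells and 11.5 RPKM on CHO cells. These 4 genes lie on separate chromosomes. In hg19, GZMA is at chr5:54398474-54406080, GZMB at chr14:25100161-25103432, PRF1 at chr10:72357104-72362531 and NKG7 at chr19:51874874-51875960. SRGN is at chr10:70847828-70864567 and TIA1 at chr2:70436576-70475779. No listed sense entry of another gene overlaps any of the 9.

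Likeness of pattern was measured as the largest difference of log2(RPKM + 0.25), centred on each gene's mean, over the 4 libraries and among 7861 genes. The genes nearest to GZMA were CFL1, ZNF768 and MRPL34, at 0.04 to 0.06, and PRF1 was within 0.12. Those nearest to GZMB were RPL15, RNASEH2A and BANF1, those nearest to PRF1 included PHB and SNRNP25, and those nearest to NKG7 were DDX41, SSR4 and ARHGAP4. SRGN was nearest to E2F7, GBP2 and CREB3, and TIA1 to UBQLN1, ARHGAP5 and UBE2V1. SLAMF7 had few close neighbours: HGF, the hepatocyte growth factor gene, at 0.21, then FAM71A at 0.55 and NAMPT at 0.59. HGF was at 0.0415 RPKM with SM-164, 0.0289 with DMSO, 1.97 on CD30L+ CHO cells and 0.592 RPKM on CHO cells. With 4 libraries this ranking is a description only.

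Most SLAM family genes sit in one stretch of chromosome 1, in the hg19 order SLAMF6, CD84, SLAMF1, CD48, SLAMF7, LY9 and CD244. SLAMF6 is at chr1:160454820-160493052, SLAMF1 at chr1:160579891-160617081 and SLAMF7 at chr1:160709077-160724601. CD48, the gene of the ligand of CD244, lies 27.5 kb from SLAMF7 on the other strand, so that their starts face each other across the gap. CD48 had 2.82 RPKM on CD30L+ CHO cells and 1.56 RPKM on CHO cells, a ratio of 1.81 (1.72 to 1.90). Its ratio was 1.33 (1.21 to 1.47) for SM-164 against DMSO and 2.09 (1.92 to 2.27) for CHO cells against DMSO. CD48 was thus higher in each comparison, by less than SLAMF7 in the CD30L and control comparisons.

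SLAMF1 and SLAMF6, in the same stretch, had the CD30L ratios of 2.36 and 2.30 given before, neither tested at these levels, and the interval of SLAMF6 spans 1. LY9, the gene of another SLAM receptor 41.3 kb beyond SLAMF7, had 36 reads on CD30L+ CHO cells and 86 reads on CHO cells, a ratio of 0.422 (0.278 to 0.629), but for CHO cells against DMSO its ratio was 2.64 (1.64 to 4.44). With CD30L, CD84 had a ratio of 0.979 (0.693 to 1.38) and CD244, the gene of the 2B4 receptor, of 0.977 (0.761 to 1.25); with SM-164 the ratio of CD244 was 1.32 (1.05 to 1.67). SLAMF8, outside this stretch, had 40 reads on CD30L+ CHO cells and 87 reads on CHO cells, a ratio of 0.463 (0.310 to 0.681). SLAMF9 was at 0 reads in all 4 libraries, which allows up to 0.0238 RPKM on CD30L+ CHO cells. Of the 9 SLAM family genes, SLAMF7 and CD48 met the minimums with CD30L and SLAMF7 alone passed 2-fold, where 0.979% of all tested genes were higher. SLAMF7 was at 1.43 times the RPKM of CD48 on CD30L+ CHO cells (1.36 to 1.498) and at 0.734 times on CHO cells (0.677 to 0.795).

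**Figure D4:**
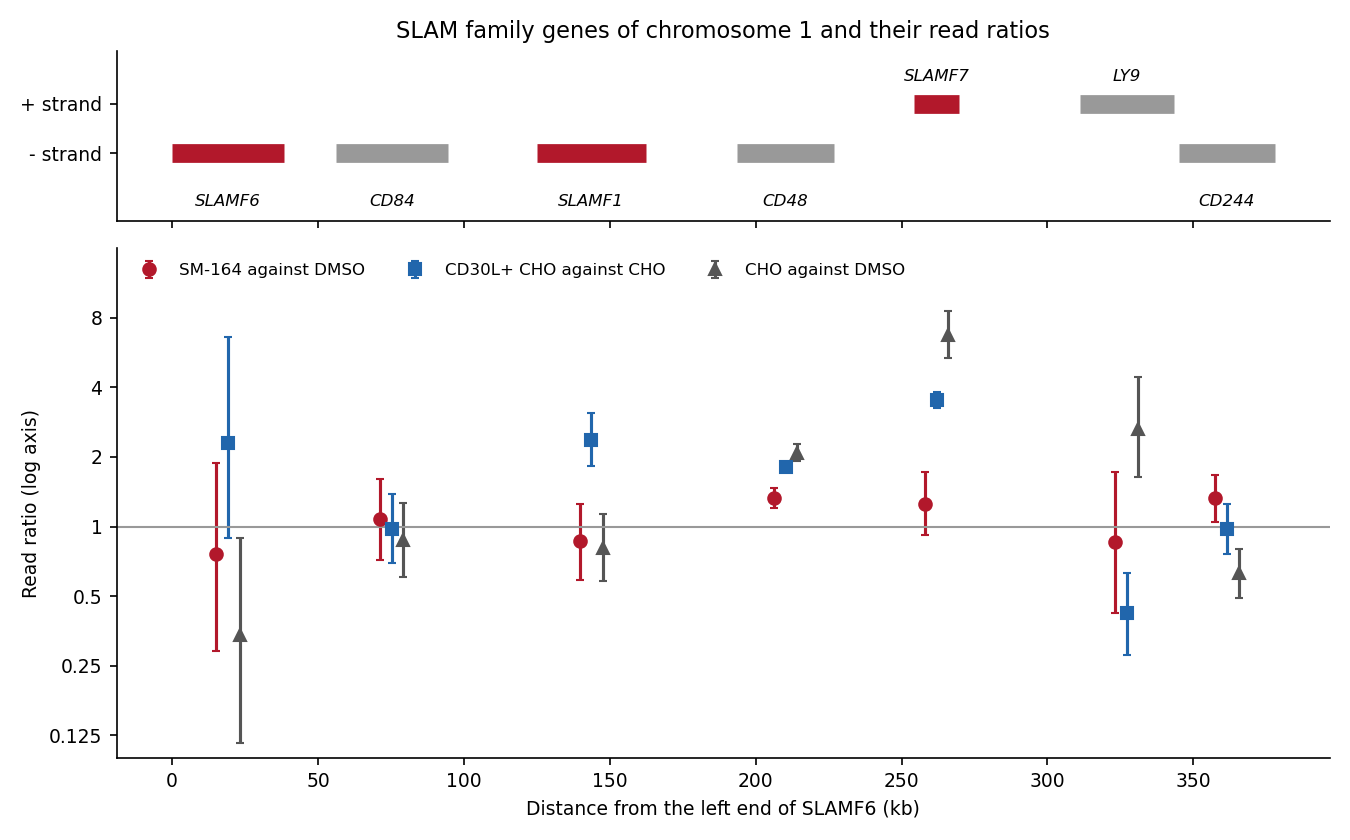
Top, positions and strands of 7 SLAM family genes in kb from the left end of SLAMF6, with the followed genes in red; bottom, their read ratios on a log axis with 95% counting intervals. SLAMF7 is at 3.51 with CD30L and 6.72 for CHO against DMSO, and LY9 is at 0.422 with CD30L.

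Of the 5 granzyme genes, GZMA and GZMB carried nearly all reads. GZMK, 68.5 kb from GZMA, and GZMH, 21.3 kb from GZMB, were at 0 reads in all 4 libraries, which allows up to 0.0116 RPKM for GZMK and 0.0361 RPKM for GZMH with SM-164, the shallowest library. GZMM had 2 reads with SM-164, 5 with DMSO, 9 on CD30L+ CHO cells and 9 reads on CHO cells. Of 20 granule content genes, which include the 6 members, 14 were tested with SM-164, with a median log2 ratio of -0.24 against -0.04 over all genes. Of these, 0 passed 2-fold in either direction, where 0.19% of all tested genes were higher and 0.0634% lower. With CD30L 13 were tested, 0 were higher and NKG7 was the 1 lower, where 0.731% of all tested genes were, with a median of -0.31 against -0.12. For CHO cells against DMSO 14 were tested, 0 were higher and 5 were lower, GZMA, GZMB, PRF1, CTSD and CALR, where 4.52% of all tested genes were, with a median of -0.42 against 0.06. At 1.5-fold 1 was higher, where 7.07% of all tested genes were, and 6 were lower, where 10.7% were. CTSC, chosen after its values were seen, was at 6.39 RPKM on CHO cells and 4.15 RPKM with DMSO. The bin of tested genes with the fewest counted bases had a median of -0.54 in this comparison. CTSD encodes the protease cathepsin D and met the minimums only through its DMSO level, and CALR encodes the chaperone calreticulin. Log2 ratios below 0 made up 85.7% of the tested list genes with SM-164, 76.9% with CD30L and 78.6% for CHO cells against DMSO. Over all tested genes the shares were 63.3%, 72% and 43.8% in the same order of comparisons. CST7, the gene of cystatin F, an inhibitor of granule proteases, had 1.43 RPKM on CD30L+ CHO cells, 2.78 on CHO cells and 2.13 RPKM with DMSO. Its CD30L ratio was 0.517 (0.471 to 0.567), and it was chosen after its values were seen.

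Of 20 genes that move and release granules, 14 were tested with SM-164 and the median was -0.04. Of these, 0 passed 2-fold in either direction, where 0.19% of all tested genes were higher and 0.0634% lower. With CD30L 15 were tested, with a median of 0.03. The 1 past 2-fold was CORO1A, the gene of an actin regulator of leukocytes, called lower where 0.731% of all tested genes were. CORO1A had 24.1 reads on CD30L+ CHO cells and 90.5 reads on CHO cells over 1716 counted bases, a ratio of 0.266 (0.162 to 0.420), and met the minimums only through its CHO level. For CHO cells against DMSO 14 were tested, with a median of -0.02. CORO1A was again the 1 past 2-fold, at 0.155 (0.122 to 0.195), where 4.52% of all tested genes were lower. At 1.5-fold 4 were lower, where 10.7% of all tested genes were. Among genes needed for granule release, chosen after their values were seen, RAB27A and STX11 had CD30L ratios of 1.11 (1.08 to 1.14) and 1.23 (1.21 to 1.26), and STXBP2 and UNC13D of 0.601 (0.513 to 0.702) and 0.490 (0.387 to 0.619). UNC13D did not meet the minimums, and none of the 4 passed 2-fold on the log2 scale. Of the 3 serpin genes in the list of granzyme inhibitors, 2 were tested and 0 passed 2-fold in either treatment comparison. In a given direction, at most 0.979% of all tested genes passed it in those comparisons. The third, SERPINB9, which encodes the inhibitor of granzyme B and was chosen after its values were seen, had 22 reads with SM-164, 17 with DMSO, 42 on CD30L+ CHO cells and 63 reads on CHO cells.

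The adaptor genes of the SLAM receptors, both chosen after their values were seen, did not pass 2-fold with CD30L. SH2D1A, which encodes SAP, had 1.35 RPKM on CD30L+ CHO cells and 0.888 RPKM on CHO cells, a ratio of 1.52 (1.41 to 1.64). SH2D1B, which encodes EAT-2, the adaptor that binds SLAMF7, had 0.510 RPKM on CD30L+ CHO cells and 1.00 RPKM on CHO cells, a ratio of 0.508 (0.449 to 0.574). Of 12 adaptor and effector genes, 9 were tested with SM-164 and 8 with CD30L, and 0 passed 2-fold in either direction. In a given direction, at most 0.979% of all tested genes passed it in those comparisons. The medians were 0.00 with SM-164 and -0.15 with CD30L.

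Of 14 transcription factor genes of the cytotoxic programme, 9 were tested in each treatment comparison and 0 passed 2-fold in either direction. In a given direction, at most 0.979% of all tested genes passed it there. The medians were 0.12 with SM-164 and 0.22 with CD30L. The factors named here were chosen after their values were seen. TBX21, the T-bet gene, had 1 or 2 reads per library. PRDM1, the Blimp-1 gene, had ratios of 1.26 (1.23 to 1.28) with SM-164 and 1.43 (1.41 to 1.45) with CD30L, and RUNX3 of 1.48 (1.45 to 1.52) and 1.46 (1.43 to 1.49). With CD30L 7 of the 9 lay above 0 and 2 below, RUNX1 at 0.811 (0.794 to 0.827) and NFIL3 at 0.932 (0.897 to 0.967). ZEB2, the gene of a repressor used by terminal effector T cells, had 11.8 RPKM on CD30L+ CHO cells and 5.82 RPKM on CHO cells, a log2 ratio of 0.99, just inside the 2-fold mark. With DMSO ZEB2 had 2.71 RPKM. For CHO cells against DMSO it was called higher, the 1 of 9 tested factors, where 0.879% of all tested genes were. None of the 9 was called lower there, although 5 lay below 0 and 2 were lower by 1.5-fold, where 10.7% of all tested genes were. A list of 8 TIA1 partners and stress granule genes had 0 past 2-fold in either direction of the treatment comparisons, beside the same shares of all tested genes. Its medians were -0.05 with SM-164 and -0.13 with CD30L.

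**Figure D5:**
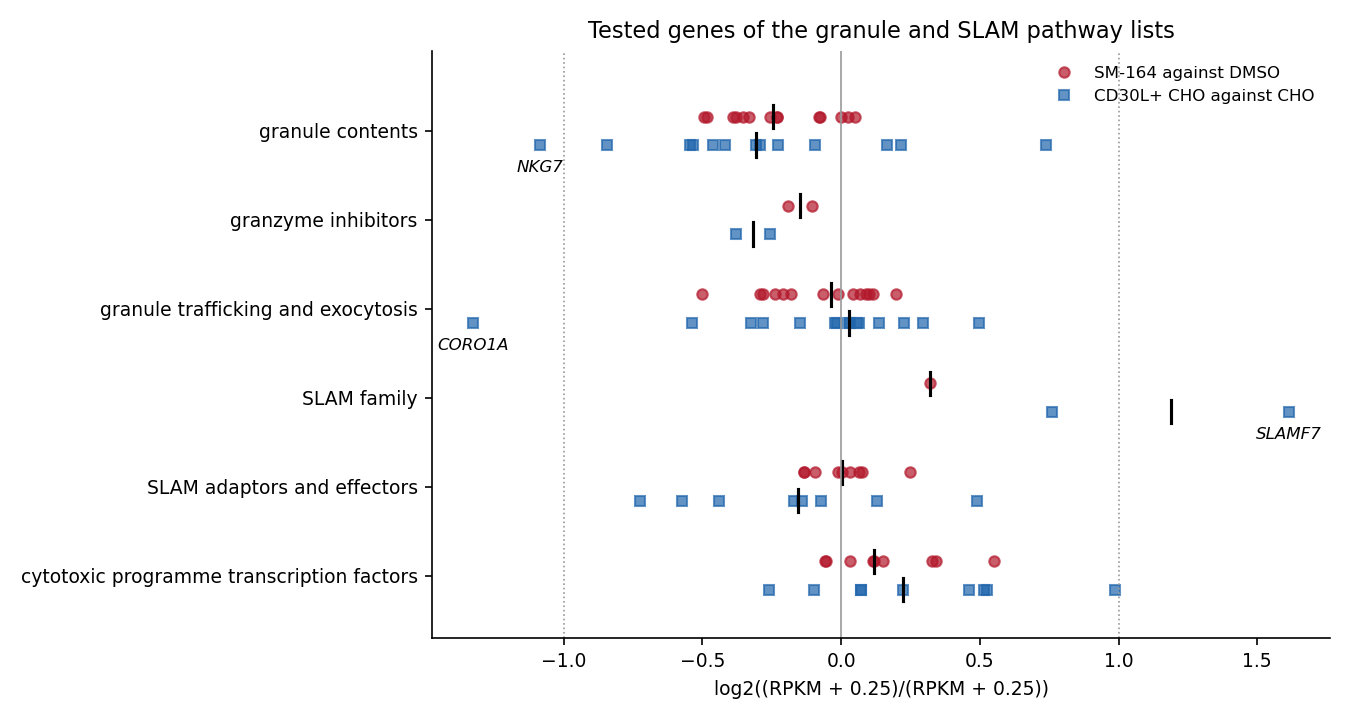
Log2 ratio of RPKM with a pseudocount of 0.25 for every tested gene of 6 pathway lists, SM-164 against DMSO as circles and CD30L+ CHO against CHO as squares. Black ticks mark medians and dotted lines 2-fold; the genes past 2-fold, NKG7, CORO1A and SLAMF7, are named, and all 3 are in the CD30L comparison.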

How the data were processed

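Nascent RNA of 4 Karpas 299 libraries was analysed. Per the submitters' processing notes, the reads were handled with bedtools 2.16.2, TopHat 1.4.1, Bowtie 0.12.8 and CASAVA 1.8.2 on build hg19; the role of each tool and the annotation were not stated there. The authors deposited an estimated count per feature, with sense and antisense reads apart. The authors also deposited a signal per counted base and an RPKM, from which the library totals were recovered. Where a symbol had several entries, the one with most counted bases was kept. Log2 ratios used RPKM + 0.25. Read ratios are of the estimated counts, taken as whole reads, over library totals. Without molecular identifiers, PCR copies are not independent, so the 95% intervals, and the 3 reads that a count of 0 allows, cover counting error only. Counts of near-identical copies are uncertain. With 1 library per condition no test was made.

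The named genes are the 9 members, list genes past 2-fold, SLAM family and granzyme genes, BIRC3 for scale, defining markers and, per member of at least 0.5 RPKM, the 3 most alike genes, of which 1 is not reported here; others are marked. The members and lists were chosen with earlier results of these data known. Alternatives varied the pseudocount, the minimums, the fold threshold, the centring, TMM scaling (edgeR 4.0.16 in R 4.3.3) and a subtraction of medians over 10 bins of counted bases. Scripts ran in Python 3.11.15 with scipy 1.17.1, pandas 2.3.3, numpy 2.4.6 and matplotlib 3.10.9, and were tested on simulated data.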

Additional observations from a re-analysis of the deposited data

How the results depend on the processing

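No paired analysis was possible because each condition has 1 library. With SM-164, 0 members passed the threshold in either direction under all alternatives run. With CD30L the 1 higher member became 2 at 1.5-fold (SLAMF7 and SRGN), and the 1 lower member, NKG7, became 0 with a pseudocount of 1, the median set to 0, TMM scaling or the length medians subtracted. Between CHO and DMSO the 1 higher member, SLAMF7, became 0 with a pseudocount of 1 or a mean RPKM of at least 1, and the 3 lower became 2, without GZMB, with a pseudocount of 1 or the length medians subtracted. Over all genes, the 15 higher with SM-164 became 8 with a pseudocount of 1 and 62 at 1.5-fold, and the 5 lower became 9 with a pseudocount of 0.1 or no expression minimum, 3 with a pseudocount of 1, 1 with at least 1000 counted bases, 87 at 1.5-fold and 0 with the length medians subtracted. With CD30L the 75 higher became 43 with a pseudocount of 1, 113 with TMM scaling and 201 at 1.5-fold, and the 56 lower became 97 and 15 with a pseudocount of 0.1 and 1, 31 with a mean RPKM of at least 1 or TMM scaling, 25 with the length medians subtracted and 382 at 1.5-fold. Between CHO and DMSO the 71 higher became 111 and 18 with a pseudocount of 0.1 and 1, 46 with a mean RPKM of at least 1, 117 with the length medians subtracted and 571 at 1.5-fold, and the 365 lower became 209 with a pseudocount of 1, 234 with the length medians subtracted and 867 at 1.5-fold. Apart from settings that change the threshold or the genes tested, the cause was not tested. Depth limits SLAMF6 most, with 7 to 16 reads per library.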

Other observations

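Reads on the strand opposite to the genes were few. SLAMF7 had 8 antisense reads with SM-164, 11 with DMSO, 31 on CD30L+ CHO cells and 27 antisense reads on CHO cells. SLAMF6 had 13 antisense and 9 sense reads with SM-164, 12 and 14 with DMSO, 28 and 16 on CD30L+ CHO cells, and 20 antisense and 7 sense reads on CHO cells, so that antisense reads outnumbered sense reads in 3 of the 4 libraries. The other 7 genes had between 0 and 3 antisense reads per library.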
